A study of Homo sapiens with 3 samples.

Results

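FOXA2 binding was described at 9 genes for plasma proteins that are textbook FOXA targets of the liver, in Caco2, an established human line from a colorectal adenocarcinoma often taken to model cells that line the intestine. The genes were ALB, AFP, AFM, GC, TTR, FGA, FGB, FGG and TF. They were chosen by name, with earlier results of these data known. The genes lie in 5 intervals of the hg19 genome, each covering a gene or a cluster of genes with 50 kb added on each side. The intervals cover 756 kb in all. On chromosome 4, ALB, AFP and AFM lie in the interval from 74219 to 74420 kb, GC in that from 72557 to 72720 kb, and FGB, FGA and FGG in that from 155434 to 155584 kb. TTR is on chromosome 18 from 29121 to 29229 kb, and TF on chromosome 3 from 133414 to 133548 kb. A peak belonged to an interval when its midpoint fell inside it. By this rule the intervals held 39 of 63949 FOXA2 peaks in replicate 1 and 34 of 26907 in replicate 2. Of these, 31 sites were shared, meaning that a replicate 1 peak overlapped a replicate 2 peak by at least 1 bp, out of 24345 shared sites in the genome. The question was whether genes known as hepatocyte targets carry the factor in an intestinal line.

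The study immunoprecipitated chromatin of Caco2 cells, grown in low-glucose medium with serum, with an antibody to FOXA2 and sequenced the recovered fragments (ChIP-seq). Its groups were 2 replicate FOXA2 immunoprecipitations and 1 input library without antibody, all from the same untreated line. The input entered through the calling of peaks by the authors and was not analysed here in its own right. Nothing in the labels says that the replicates came from separate cultures, so the spread between them may be technical. Replicate 1 held 26183147 tags (sequenced fragment ends) and replicate 2 held 15756702. The score of a peak is the authors' tag count scaled to 10000000 tags per library, and 1 unit equals 2.62 tags for replicate 1 but 1.58 for replicate 2. No RNA was measured in these libraries, so the data give occupancy of the loci and not the expression of the genes.

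FOXA proteins are forkhead transcription factors that bind their sites on nucleosomes and open the surrounding chromatin, which has given them the name of pioneer factors. They were first purified from liver as proteins that bind the promoters of transthyretin and other hepatocyte genes, and occupancy of the albumin enhancer in early endoderm is the classic case of pioneer binding. FOXA2 is also expressed in the epithelium of the gut, which shares its endodermal origin with the liver. Albumin, alpha-fetoprotein, afamin and the vitamin D-binding protein, encoded by ALB, AFP, AFM and GC, form the albuminoid family of carriers. TTR carries thyroid hormone and retinol-binding protein, TF carries iron, and FGA, FGB and FGG encode the chains of fibrinogen, the precursor of the blood clot.

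The promoters of 7 of the 9 genes were matched by symbol in the RefSeq table on GRCh38.p14, and GC and TTR are named only. The 250 bases before each start were searched on both strands for the forkhead core in the forms TGTTTAC or TATTTAC or TGTTTGC or TATTTGC. At least 1 of these was present before the starts of ALB, AFP, FGA and FGB, that is in 4 of the 7 genes, and none was found in the windows of AFM, FGG and TF. At least 1 of the 4 forms was present in 10.6% of all 35116 promoter windows given there, against 5 of the 9 windows of the 7 genes. The same match before both starts of FGB is counted for each start. A window of each of the 4 genes with a match is shown 5′ to 3′ in the direction of the gene, with the forkhead letters in capitals. These windows are shown because 2 of them belong to the most strongly occupied locus and the others to the locus with the most sites. Their coordinates are on GRCh38.p14 and are not comparable with the hg19 coordinates of the peaks. A match describes the letters and does not show that FOXA2 sat there.
FGB (chr4:154562730-154562979, plus strand): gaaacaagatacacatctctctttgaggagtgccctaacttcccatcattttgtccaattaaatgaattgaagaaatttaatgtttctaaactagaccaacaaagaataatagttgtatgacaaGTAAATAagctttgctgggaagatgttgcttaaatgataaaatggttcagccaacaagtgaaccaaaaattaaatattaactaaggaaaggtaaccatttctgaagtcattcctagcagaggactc
FGA (chr4:154590743-154590992, minus strand): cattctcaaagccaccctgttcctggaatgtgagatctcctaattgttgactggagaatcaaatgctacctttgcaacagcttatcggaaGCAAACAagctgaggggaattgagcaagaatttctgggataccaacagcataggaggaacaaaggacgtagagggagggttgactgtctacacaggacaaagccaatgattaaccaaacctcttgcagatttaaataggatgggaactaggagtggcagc
ALB (chr4:73404037-73404286, plus strand): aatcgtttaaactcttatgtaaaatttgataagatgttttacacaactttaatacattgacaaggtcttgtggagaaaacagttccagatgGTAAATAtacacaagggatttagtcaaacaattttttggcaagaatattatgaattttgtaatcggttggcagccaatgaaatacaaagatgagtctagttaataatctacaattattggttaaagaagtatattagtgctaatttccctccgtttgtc
AFP (chr4:73435971-73436220, plus strand): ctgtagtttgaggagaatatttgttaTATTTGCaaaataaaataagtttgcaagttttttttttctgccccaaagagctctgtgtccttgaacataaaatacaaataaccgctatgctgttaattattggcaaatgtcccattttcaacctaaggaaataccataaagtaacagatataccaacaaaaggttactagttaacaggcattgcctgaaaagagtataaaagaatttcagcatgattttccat

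In ALB and FGB the form was TATTTAC on the opposite strand, beginning 159 and 126 bases before the start. FGB has a further start in the table, and the same match lies 157 bases before it. FGA held TGTTTGC on the opposite strand, 160 bases before its start, and AFP held TATTTGC on its own strand at 224 bases.

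FOXA2 occupied all 5 liver loci in Caco2 cells, though to very different degrees. The ALB-AFP-AFM locus held 11 shared sites, the FGB-FGA-FGG locus 8, TTR 6, TF 4 and GC 2. As a background, the genome was tiled in windows of each interval's length, within the span of the peaks on chromosomes 1 to 22 and X. At least 1 shared site was present in all 5 loci, against 58.0% of windows of 201 kb, 50.6% of 150 kb, 42.7% of 108 kb, 47.9% of 134 kb and 52.8% of 163 kb, the lengths of the loci in the order just given. Having any site was therefore common for a stretch of this size, and the number of sites is set against the same windows next.

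Only 0.616% of 201 kb windows held as many shared sites as the 11 of ALB-AFP-AFM, which had 6.61 times the genome mean of 1.66. The 8 sites of the fibrinogen locus were reached by 1.28% of 150 kb windows and were 6.44 times the mean of 1.24. The 6 sites of TTR were reached by 1.71% of 108 kb windows, at 6.71 times the mean of 0.894. TF stood lower in this order, with 4 sites that 9.13% of 134 kb windows reached, 3.61 times the mean of 1.11. GC lay near the genome's background, since its 2 sites were reached by 31.7% of windows of 163 kb, where the mean was 1.35. These percentages describe the genome as tiled, gene-poor stretches included. They carry no test, because 2 libraries of 1 condition leave no groups to compare. They also depend on the list that is counted. In replicate 2 alone they were 0.596% for ALB-AFP-AFM, 1.13% for FGB-FGA-FGG, 1.17% for TTR, 10.6% for TF and 34.0% for GC. Counted in the longer list of replicate 1 alone, as many peaks as in the locus were present in 2.99% of windows for ALB-AFP-AFM, 6.52% for TTR, 13.3% for FGB-FGA-FGG, 24.9% for TF and 58.7% for GC.

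**Figure D1:**
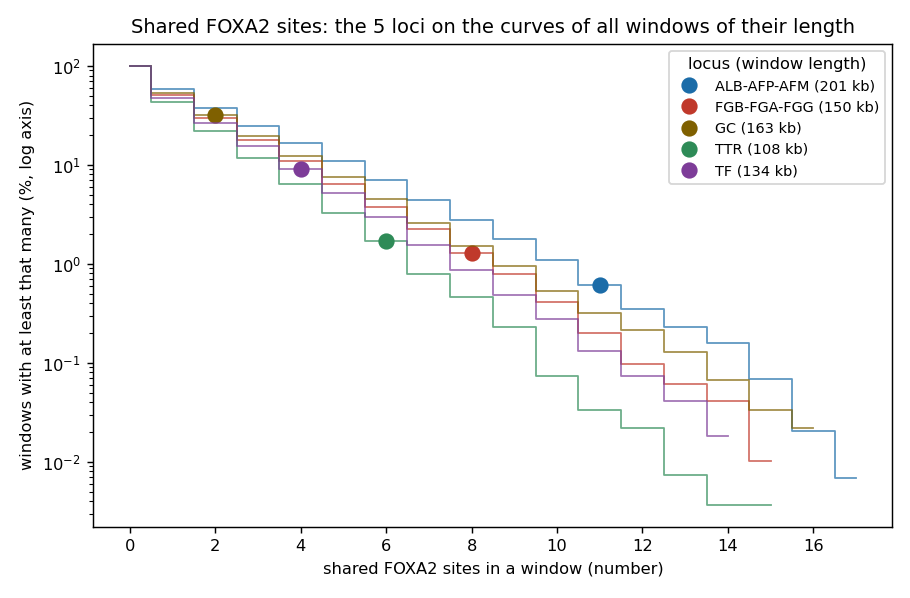
Percentage of genome windows (vertical log axis) that held at least the given number of shared FOXA2 sites (horizontal axis). Each line covers all windows of 1 locus's length, and the filled point marks that locus. The points of ALB-AFP-AFM (11 sites, 0.616%), FGB-FGA-FGG (8, 1.28%) and TTR (6, 1.71%) sit far down their lines, TF (4, 9.13%) is intermediate and GC (2, 31.7%) lies near the top.

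The fibrinogen locus was the most strongly occupied of the 5. Its 3 genes lie side by side, with FGB read in one direction and FGA and FGG in the other, between PLRG1 and LRAT as the nearest protein-coding neighbours. The strongest site was on chromosome 4 at 155538956 to 155539078 and lay about 5.02 kb upstream of the start of FGG, the gene of the gamma chain. It scored 255 in replicate 1 and 228 in replicate 2, a mean of 241.5 ± 19.1 (SD, n = 2). It ranked first among the 3161 peaks of chromosome 4 in replicate 1 and first among the 1426 in replicate 2. In the whole lists it ranked 26 and 25, and it scored 31.9 and 20.7 times as high as the median peaks there. Among shared sites, 0.0904% had a mean score at least as high, and 0.112% of 150 kb windows held a site as strong. Distances to gene starts are measured from the outer edges of the genes given with the intervals, which are known to about 1 kb.

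Inside the span of the fibrinogen genes were 4 shared sites, 2 of them close together and high. The site at 155517075 to 155517197 scored 103 and 102 in the replicates, and the one 2.26 kb away at 155519331 to 155519453 scored 81 and 102. Both were among the 2.08% of shared sites with the highest mean scores. The site at 155511983 to 155512105 scored 45 in replicate 1 and 69 in replicate 2. The site at 155498568 to 155498690 scored 40 and 37. The centres called for it in the replicates were the same base. Which of these 4 lie in an exon, an intron or between genes was not worked out, since no annotation of hg19 was used here. The start of FGA lies inside this span as well. On GRCh38.p14 the windows before FGG and FGA had their lower ends at 154612657 and 154590743. The site at 155511983 to 155512105 was 22.0 kb beyond the start of FGG. If the spacing of the starts holds on hg19, it lies close to the start of FGA. The distances to that start were not worked out on hg19.

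Upstream of FGB, which encodes the beta chain, 2 shared sites lay within 3 kb of the start. The stronger, at 155481313 to 155481435, was about 2.63 kb from the start and scored 52 in replicate 1 and 77 in replicate 2. Its neighbour, 0.68 kb closer to the gene, scored 8 and 19. The last shared site of the interval was 47.4 kb upstream of FGG and scored 33 and 25, far below the site at 5.02 kb. Of the 8 shared sites, 5 had a mean score of at least 50, and 2 of at least 100.

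**Figure D2:**
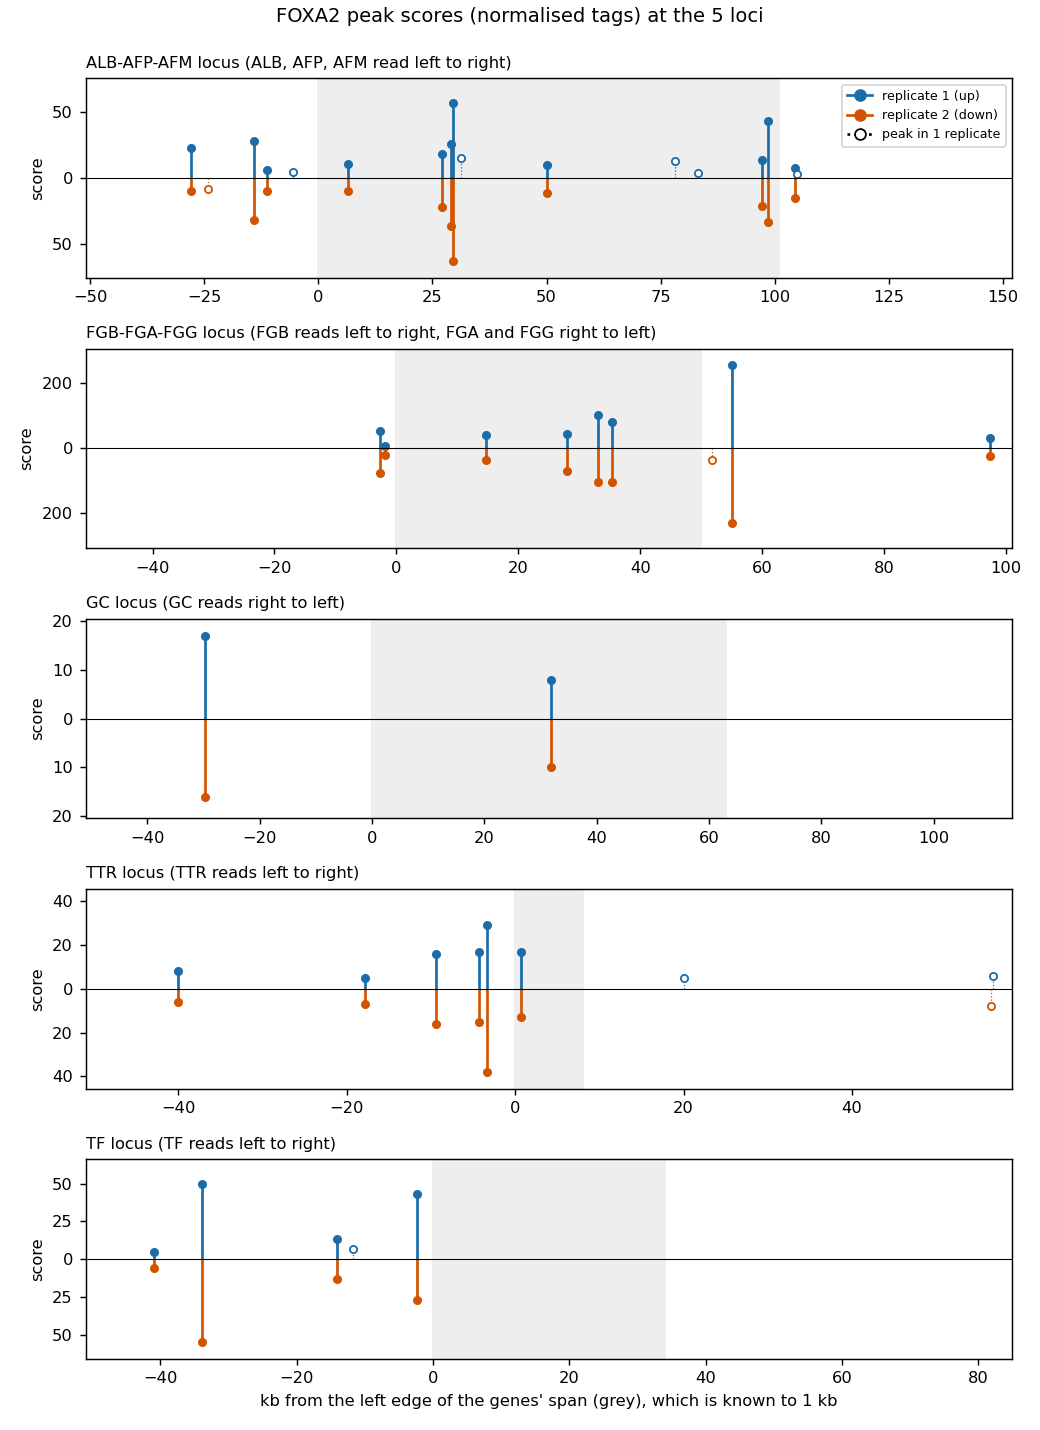
Scores of FOXA2 peaks in normalised tags (vertical axis, a scale of its own per locus) against the distance in kb from the left edge of the genes, whose span is grey. Replicate 1 points up and replicate 2 points down, and open circles mark peaks found in a single replicate. The peak upstream of FGG, with 255 and 228, is the tallest. TF has sites only before the start that its interval is built on, and GC has a pair of low sites.

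The albumin cluster carried the largest number of sites, spread over and before its genes. ALB, AFP and AFM lie in this order and are all read in the same direction, between ANKRD17 and RASSF6. The starts of AFP and AFM were not placed on hg19, so distances here are from the start of ALB, the gene of the main plasma protein. Sites in the cluster may lie nearer to the start of AFP or AFM. The densest group lay 27.1 to 29.5 kb beyond the start of ALB and held 3 shared sites. The strongest of them, at 74298417 to 74298539 on chromosome 4, scored 57 in replicate 1 and 63 in replicate 2 (60.0 ± 4.24, SD, n = 2). Its neighbour, 0.487 kb to its left, scored 26 and 36, and the one at 74296007 to 74296129 scored 18 and 22. All 3 were higher in replicate 2. On GRCh38.p14 the window before ALB ended at 73404286 and that before AFP at 73436220. If this spacing holds on hg19, the 3 sites lie upstream of AFP and nearer to its start than to that of ALB. Of all shared sites, 5.62% scored at least as high as the strongest, and 7.65% of 201 kb windows held a site of that mean score.

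Towards the AFM end of the cluster, the site at 74367500 to 74367622 scored 43 in replicate 1 and 33 in replicate 2. Another, 1.27 kb to its left, scored 14 and 21. Both lay in the last 5 kb of the genes' span, where AFM, the gene of afamin, ends. A weaker site 3.47 kb past the span scored 8 and 15. The remaining sites of the genes' span were low. The site at 74275425 to 74275547, the shared site nearest to the start of ALB at 6.49 kb, scored 11 and 10, and the one at 74318946 to 74319068 scored 10 and 11.

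Upstream of ALB, where the classic albumin enhancer of the mouse lies, there were 3 shared sites. The one at 74254791 to 74254913, about 14.1 kb before the start, was the strongest and scored 28 in replicate 1 and 32 in replicate 2. The site 11.2 kb before the start scored 6 and 10. The site at 74241106 to 74241228, 27.8 kb before it, scored 23 and 10, and the replicates differed most there of all 31 sites on the side of replicate 1. Closer to ALB, 5.52 kb before its start, replicate 1 had a peak of score 5 that replicate 2 lacked. That score stands for 13.1 tags, and a peak of the same strength would have about 6.57 tags in replicate 2. Whether it was bound there was not detectable at this depth.

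At TTR, the transthyretin gene in whose promoter FOXA proteins were first characterised, FOXA2 lay near the start of the gene and upstream of it. The site at 29171680 to 29171802 on chromosome 18 lay 0.741 kb beyond the start, which is known to about 1 kb. It scored 17 in replicate 1 and 13 in replicate 2 (15.0 ± 2.83, SD, n = 2). The strongest site of the locus, at 29167607 to 29167729, lay 3.33 kb upstream and scored 29 and 38. A site 0.95 kb further from the gene scored 17 and 15, and the site 9.4 kb upstream scored 16 in both replicates. These 4 sites within 10 kb form the core of the locus. The shared sites further out were low, with 5 and 7 at 17.8 kb and 8 and 6 at 40.0 kb.

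No shared site lay downstream of the TTR gene within 50 kb. About 57 kb from its start, each replicate had a weak peak of its own, with a score of 6 in replicate 1 and 8 in replicate 2, whose centres were 179 bp apart. They count as 1 shared site when midpoints within 500 bp are accepted, which gives TTR 7. The neighbours on either side are DSG2 and B4GALT6, and to which gene the outer peaks belong was not worked out. In strength TTR was moderate, since 11.1% of 108 kb windows held a site as strong as its best.

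TF, the transferrin gene, had all 4 of its shared sites upstream of the start that its interval is built on, and none between that start and 50 kb past the gene. RefSeq lists a further TF start upstream of that one, and where the sites lie relative to it was not worked out on hg19. The site at 133430074 to 133430196 on chromosome 3, about 33.9 kb before the start, scored 50 in replicate 1 and 55 in replicate 2 (52.5 ± 3.54, SD, n = 2). The site at 133461534 to 133461656, about 2.41 kb before the start, scored 43 and 27. The other two were weaker, with 13 in both replicates at 14.0 kb and with 5 and 6 at 41.0 kb. Replicate 1 alone had a peak of score 7 at 11.7 kb. A site as strong as the best of TF was present in 6.67% of 134 kb windows.

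GC, the gene of the vitamin D-binding protein, was the least occupied locus. It had 1 shared site in its gene body, at 72638880 to 72639002 on chromosome 4, which scored 8 in replicate 1 and 10 in replicate 2. The other shared site was 29.8 kb past the end of the gene, at 72577143 to 72577265, and scored 17 and 16. No peak of either replicate lay upstream of GC within 50 kb. Sites as strong as the better of the pair were present in 32.6% of windows of 163 kb, which places GC within the usual range of the genome.

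The start of a gene at the outer edge of its interval is known for 6 of the 9 genes, and the distance to the nearest shared site differed widely among them. It was 0.741 kb for TTR, 1.95 kb for FGB, 2.41 kb for TF, 5.02 kb for FGG, 6.49 kb for ALB and 31.1 kb for GC. The sites nearest to FGB, TF and FGG were upstream, and those nearest to TTR, ALB and GC lay beyond the start, although the 0.741 kb of TTR is below the 1 kb to which the edge is known. AFP, AFM and FGA have starts inside a cluster and were left out of this order. Shared sites may lie as near to their starts as to those listed. The spacing of starts on GRCh38.p14 would place sites close to FGA and upstream of AFP, but the distances were not worked out on hg19. The nearest site was not always a strong one: the site 5.02 kb from FGG scored 255 and 228 and the one 1.95 kb from FGB scored 8 and 19.

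Summed over all peaks and divided by length, the score placed the loci in an order that both replicates shared. The fibrinogen locus had 4.37 ± 0.368 score units per kb (mean ± SD, n = 2), with 4.11 in replicate 1 and 4.63 in replicate 2. ALB-AFP-AFM had 1.38 ± 0.0457, with 1.41 and 1.35. TTR had 0.954 in both replicates, and TF had 0.817 ± 0.0897, with 0.881 and 0.754. GC had 0.156 ± 0.00434, with 0.153 and 0.16. The mean of all windows was 0.298 in replicate 1 and 0.176 in replicate 2 at each of the 5 window lengths, so GC was below both. TTR and TF lay close together, the gap between their means being less than 2 SD of TF, and from peaks that scored at least 10 their order turned, with 0.745 for TTR and 0.75 for TF. The other neighbours in this order differed by more than the spread of the replicates.

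A summed score as high as that of the fibrinogen locus was found in 11 of 19587 windows of 150 kb in replicate 1, or 0.0562%, and in 6, or 0.0306%, in replicate 2. The fibrinogen locus held 53.8% of the summed score of all 5 loci in replicate 1 and 58.1% in replicate 2. For ALB-AFP-AFM the percentage of windows with as high a sum was 2.92% in replicate 1 and 1.16% in replicate 2. For TTR it was 8.38% and 4.01%, for TF 9.17% and 5.65%, and for GC 46.6% and 29.4%. No test stands behind these percentages, as for the counts of sites.

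**Figure D3:**
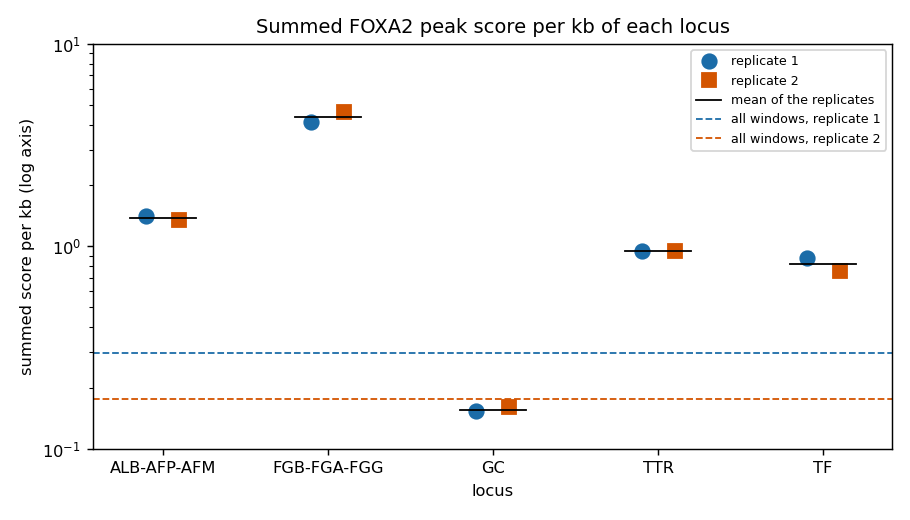
Summed FOXA2 peak score per kb (vertical log axis) at each locus, with a circle for replicate 1, a square for replicate 2 and a bar for their mean. Dashed lines give the mean of all windows in each replicate, the same at all 5 window lengths, 0.298 and 0.176. The fibrinogen locus lies highest at 4.11 and 4.63, and GC lies below both lines.

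Most peaks of the loci were seen in both replicates. Of the 39 replicate 1 peaks, 31 were shared, or 79.5%, against 38.1% of all replicate 1 peaks. Of the 34 replicate 2 peaks 31 were shared, or 91.2%, against 90.5% of all replicate 2 peaks. Sharing rises with score in the whole lists. The peaks of the loci had a median score of 16 in replicate 1 and 20 in replicate 2, against 8 and 11 over all peaks. For shared sites only, the medians were 18 and 21 in the loci, against 16 and 13 in the genome. Among replicate 1 peaks that scored at least 10, 24 of 26 were shared in the loci, against 73.6% in the genome. Among those under 10, 7 of 13 were shared, against 14.0%. Of the 31 shared sites 7 had a mean score of at least 50, against 8.09% of all shared sites, and 2 had at least 100, against 1.61%. The fibrinogen locus held 5 of the 7 and the 2 of at least 100. ALB-AFP-AFM and TF held 1 each of the 7, and TTR and GC none.

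The peaks found in a single replicate ranged from weak to moderate. Replicate 1 had 8 of them with scores of 3 to 15, of which 6 scored 7 or less, and 5 lay in the albumin cluster. The highest, at 74300202 to 74300324, scored 15, which stands for 39.3 tags, and lay 1788 bp from the nearest replicate 2 peak. The next, at 74347188 to 74347310, scored 13. At the genome's median ratio these would have about 19.7 and 17.1 tags in replicate 2, above its calling threshold of 10 tags, and the other 6 would have at most 9.19. Replicate 2 had 3, with scores of 8, 8 and 36, for which the same ratio gives 25.1, 25.1 and 113 tags in replicate 1, above its threshold of 11. The peak of 36 lay at 155535691 to 155535841, about 1.77 kb upstream of FGG, and stands for 56.7 tags. The nearest replicate 1 peak was 3251 bp away and was the strongest site of the chromosome. Peak calling required a 4-fold excess over the surrounding 10000 bp, a stretch that includes that site. The same rule held in replicate 2, where that site scored 228, against 255 in replicate 1, and the peak was called. Whether the rule had a part in the missing call of replicate 1 was not tested.

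At the shared sites of these loci, replicate 2 was relatively higher than over all shared sites, a difference that was described and not tested. Of the 31 sites, 17 scored higher in replicate 2, 12 in replicate 1 and 2 were equal, against 29.7% of all shared sites that scored higher in replicate 2. The ratio of the scores, replicate 1 over replicate 2, had a median of 0.909 over the 31 sites and of 1.2 over all shared sites. It was 0.875 at ALB-AFP-AFM, 0.902 at FGB-FGA-FGG, 0.931 at GC, 0.955 at TF and 1.07 at TTR. Chromosome 4, which carries 3 of the loci, had a median ratio of 1.11 over its 1279 shared sites, with 35.8% higher in replicate 2, so it departed from the genome in the same direction but less. For 10 of the 31 sites the 95% interval of the ratio, from an exact binomial interval of the tags, left out the genome's median, against 21.0% of all shared sites. On the side of replicate 2 were 9 of the 10, against 9.3% of all shared sites. These intervals cover counting error only, and the ratios are approximate because peak width was 123 bp for replicate 1 but 151 bp for replicate 2. Of these 10 sites 5 lay in ALB-AFP-AFM, 4 in FGB-FGA-FGG and 1 in TTR. The site with the lowest ratio was the one nearest to FGB, at 0.421 (95% interval 0.229 to 0.761).

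**Figure D4:**
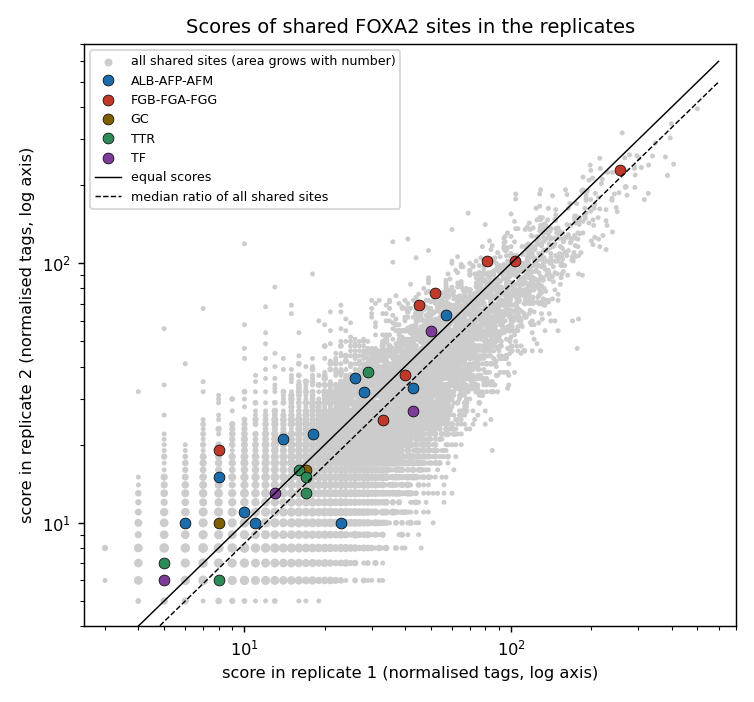
Score in replicate 2 against score in replicate 1 (normalised tags, both axes logarithmic) for the 31 shared sites of the loci in colour and all shared sites in grey. The solid line marks equal scores and the dashed line the median ratio of all shared sites, 1.2. Of the coloured points, 17 lie above the solid line, and the site upstream of FGG is at the upper right with 255 and 228.

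The replicates placed the sites at nearly the same bases. The centres of the 31 shared sites lay a median of 12 bp apart and at most 49 bp, against a median of 15 bp over all shared sites. The largest offset was at the strong site upstream of FGG. Sites also lay close to each other: in ALB-AFP-AFM 3 of the gaps between neighbouring shared sites were at most 2 kb, and TTR and FGB-FGA-FGG had 1 such gap each. The smallest gap, 0.487 kb, was in the densest group of the albumin cluster. TF and GC had no gap under 2 kb.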

How the data were processed

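Per the submitters' processing notes, the genome build was hg19, with Bowtie 1.0.0 and HOMER 1.2 named. Per the file headers, the authors called peaks in each replicate separately with HOMER findPeaks (factor style) against an input library, requiring 4 times the tags of the input and of the local 10000 bp, a Poisson p-value of 0.0001 and a false discovery rate of 0.001. The deposited score was read as the authors' tag count scaled to 10000000 tags and rounded: turned back into tags, its sum was 0.45% (replicate 1) and 0.196% (replicate 2) above the header's tags in peaks.

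Intervals, members and lists were chosen with earlier results of these data known. Peaks were assigned by midpoint, and shared sites are given at replicate 1 coordinates, 1-based. Windows were tiled from the first base of each chromosome. Ratio intervals are exact binomial (Clopper-Pearson). No hypothesis test was run. Every shared site is described, as the rule for naming sites required for intervals with at most 10, and also for the 11 of ALB-AFP-AFM, of which that rule asked for fewer. The search for overlaps was checked on simulated peaks. Python 3.11.15, numpy 2.4.6, scipy 1.17.1, pandas 2.3.3 and matplotlib 3.10.9 were used. Gene order, neighbours and the promoter windows came from RefSeq on GRCh38.p14. It was not used to place peaks, beyond the spacing of the ALB and AFP starts and of the FGG and FGA starts.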

Additional observations from a re-analysis of the deposited data

How the results depend on the processing

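The counts of shared sites stayed within 1.5 times of the values reported in 32 of 35 alternatives. The exceptions were GC, with 1 site at a score of at least 10 in both replicates and 1 with 25 kb each side, and TF, with 2 at 25 kb each side. Using a single replicate's whole list, the counts were 12 to 16 for ALB-AFP-AFM, 8 to 9 for FGB-FGA-FGG, 7 to 8 for TTR, 4 to 5 for TF and 2 for GC.

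The percentages of windows with as many shared sites moved more. Over windows with a peak of either replicate they were 0.775% (ALB-AFP-AFM), 1.73% (FGB-FGA-FGG), 2.54% (TTR), 12.7% (TF) and 41.8% (GC). Over windows of the same chromosome, an alternative chosen after seeing the data, they were 0.422%, 0.944%, 1.39%, 11.5% and 25.4% in that order. Without one replicate they ranged from 0.596% to 2.99%, 1.13% to 13.3%, 1.17% to 6.52%, 10.6% to 24.9% and 34.0% to 58.7%. The cause was not tested, except that the list of replicate 1 is longer.

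Summed scores per kb depended on the flank, and not in the same direction at all loci. With 25 kb instead of 50 kb each side they were higher at ALB-AFP-AFM, FGB-FGA-FGG and TTR. They were lower at TF and GC, so TTR and TF were no longer close together. With 25 kb each side they were 1.73 (ALB-AFP-AFM), 6.27 (FGB-FGA-FGG), 1.53 (TTR), 0.613 (TF) and 0.0796 (GC). With 100 kb each side they were 1.18 (ALB-AFP-AFM), 2.67 (FGB-FGA-FGG), 0.839 (TTR), 0.821 (TF) and 0.097 (GC). From peaks of at least 10 they were 1.3 (ALB-AFP-AFM), 0.745 (TTR), 0.75 (TF) and 0.132 (GC), so TF then stood above TTR. No paired analysis was possible because the design has a single group with replicates. Motif searches in the peaks and the counts for other hepatic secreted protein genes were not run, since no genome or annotation of hg19 was used here. Depth limits the peaks of low score: a peak of score 5 stands for 13.1 tags in replicate 1.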

Other observations

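Beyond the 50 kb on each side, up to 100 kb, the 5 loci had 8 further shared FOXA2 sites. The strongest was 78.7 kb to the left of TTR, at 29092277 to 29092399 on chromosome 18, with a score of 47 in replicate 1 and 50 in replicate 2 (48.5 ± 2.12, SD, n = 2). It scored higher than any site within 50 kb of TTR. TF had a pair to its left, with 25 and 40 at 74.7 kb and with 41 and 34 at 69.3 kb. To the left of ALB, 3 sites lay between 55.6 and 57.8 kb from the gene, the strongest with 24 and 27. No further shared site lay near GC or the fibrinogen genes. These sites were chosen after their values were seen, and the genes they lie in were not worked out.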
